A study of Rattus norvegicus with 46 samples.

Results

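The genes described here are 4 of the 30452 in the count table: the receptor genes Tlr2 (ENSRNOG00000009822) and Tlr4 (ENSRNOG00000010522), the co-receptor gene Cd14 (ENSRNOG00000017819) and Nfkbia (ENSRNOG00000007390), the gene of the NF-kB inhibitor IkB-alpha. They were chosen as a list of these 4 IDs for the first steps of Toll-like receptor sensing, with the names as that list pairs them. The files themselves hold IDs only. All 4 were found in the table, and all 4 passed the low-count filter in each comparison below.

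RNA was counted in 46 brain samples of male Wistar rats that were 3 months old at the start. In the ketogenic lesion group (19 libraries) rats ate a ketogenic diet, with 84% of energy from fat, 11% from protein and 5% from carbohydrate, for 2 months before occlusion of the middle cerebral artery (MCAO), a model of ischemic stroke. They stayed on it for 2 more weeks, and the ischemic lesion was taken 14 days after MCAO. The standard-diet lesion group (11 libraries) had the same surgery and sampling on a diet with 11% of energy from fat, 24% from protein and 65% from carbohydrate, which the labels call ad libitum. The intact groups gave brain tissue without MCAO on the ketogenic diet (8 libraries) and on the standard diet (8 libraries). The brain region of the intact samples, any sham surgery and the way a lesion was cut out are not given in the sources used here. Libraries are called below by group and sample number.

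Toll-like receptors are sensors of the innate immune system that bind molecules of microbes and, in damaged tissue, molecules released by injured cells. Cd14 hands ligands to Tlr4 and Tlr2, and both receptors signal to NF-kB, a transcription factor that turns on inflammatory genes. IkB-alpha holds NF-kB in the cytoplasm. Its own gene, Nfkbia, is a target of NF-kB, so its transcript is a common readout of that feedback. In brain these sensors are known mainly from microglia and from macrophages that enter after injury. In bulk tissue more cells of such a type and more RNA per cell cannot be told apart. Marker genes of cell types could not be looked up, because no ID matched a name table.

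The sequence before the start of each gene is shown as a description, and its relation to the levels of the genes was not tested. The 250 bases upstream of the start that the RefSeq promoter table uses were read for all 4 symbols from build GRCr8, 5′ to 3′ on the strand of the gene. The counts were made on another build, mRatBN7.2. The windows lie at chr2:171504558-171504807 (minus strand) for Tlr2, chr5:85160997-85161246 (plus strand) for Tlr4, chr18:28611159-28611408 (minus strand) for Cd14 and chr6:78597073-78597322 (minus strand) for Nfkbia. RefSeq gives 3 of these genes an extent that reaches farther upstream, so all 250 bases for Tlr2 and Cd14 and 235 for Nfkbia lie within it, and 0 for Tlr4. Capitals mark matches to the NF-kB consensus in Tlr2 and Nfkbia, and matches to GAGGAA or its reverse complement TTCCTC, the core of the site of the myeloid factor PU.1, in Tlr4 and Cd14.
Tlr2: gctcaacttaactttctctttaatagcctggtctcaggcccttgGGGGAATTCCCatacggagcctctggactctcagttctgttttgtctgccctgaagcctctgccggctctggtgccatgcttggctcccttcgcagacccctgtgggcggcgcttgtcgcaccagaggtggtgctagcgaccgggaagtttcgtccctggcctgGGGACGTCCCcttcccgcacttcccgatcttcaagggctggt
Tlr4: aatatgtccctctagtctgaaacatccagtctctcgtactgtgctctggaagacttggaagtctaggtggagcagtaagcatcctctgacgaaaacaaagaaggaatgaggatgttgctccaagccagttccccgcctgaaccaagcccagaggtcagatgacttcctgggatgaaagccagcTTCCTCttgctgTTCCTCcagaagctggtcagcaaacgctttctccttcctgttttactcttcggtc
Cd14: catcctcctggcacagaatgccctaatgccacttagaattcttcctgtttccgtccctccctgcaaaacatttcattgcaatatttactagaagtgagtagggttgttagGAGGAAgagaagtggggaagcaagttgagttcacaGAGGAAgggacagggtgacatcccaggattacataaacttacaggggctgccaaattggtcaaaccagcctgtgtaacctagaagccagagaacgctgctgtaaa
Nfkbia: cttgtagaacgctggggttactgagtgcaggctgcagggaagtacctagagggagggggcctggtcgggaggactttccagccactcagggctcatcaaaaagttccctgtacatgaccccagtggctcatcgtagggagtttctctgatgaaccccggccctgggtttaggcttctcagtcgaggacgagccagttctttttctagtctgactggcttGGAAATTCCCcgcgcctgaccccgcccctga

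Matches to the NF-kB consensus were found before Tlr2 and Nfkbia and not in the windows of Tlr4 and Cd14. In Tlr2 they fall into 2 stretches, 206 to 196 and 42 to 33 bases before the start, where 5 matches overlap on both strands. The match of Nfkbia lies 31 to 22 bases before the start. The consensus was present on either strand in 2117 of 33469 promoter windows of this length (6.33%). Tlr4 and Cd14 each had 2 matches to GAGGAA, which 23.3% of the windows hold, and Tlr2 and Nfkbia had 0. The AP-1 consensus TGANTCA, searched on both strands, was in 0 of the 4 windows and in 6.34% of all. These letters describe the windows and show no binding.

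Library totals ranged from 8883068 to 30601841 counts. All levels below are CPM, counts scaled to a common library size, after TMM scaling over the 46 libraries, and they compare libraries for 1 gene, not genes with each other. A gene was called at an adjusted p under 0.05 in edgeR's quasi-likelihood test with Benjamini-Hochberg adjustment over all genes tested.

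The 2 receptor genes and Cd14 were several times higher in lesions than in intact brain on both diets, and Nfkbia was higher by a smaller factor. All 4 genes were called higher in lesions on the ketogenic diet, where 35.2% of 15862 genes were called higher, and all 4 on the standard diet, where 34.3% of 15446 genes were. The median log2 fold change of the 4 genes was 2.98 on the ketogenic and 2.69 on the standard diet, against a median near 0.00 over all genes tested on the ketogenic and -0.01 on the standard diet. A call in this direction was therefore common, and the size of the change is given beside each gene.

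Tlr2, whose product senses bacterial lipoproteins, ran from 6.52 to 75.9 CPM in ketogenic lesions (median 31.0), against 3.24 to 7.21 CPM in ketogenic intact brain (median 5.19). In standard-diet lesions it ran from 9.64 to 70.6 CPM (median 37.8), against 3.78 to 7.57 CPM in standard-diet intact brain (median 6.31). Standard-diet lesions lay above every intact library of that diet, as they did for 11.8% of genes tested. Of the 19 ketogenic lesions 1, library 27, fell inside the intact range. The log2 fold change was 2.69 (SE 0.41, adjusted p = 2.70e-06) on the ketogenic diet, a 6.44-fold difference with a 95% interval from 3.58 to 11.6. On the standard diet it was 2.66 (SE 0.29, adjusted p = 1.69e-07), or 6.31-fold with an interval from 4.14 to 9.60. A larger log2 fold change was fitted for 5.23% of genes on the ketogenic diet and for 4.05% on the standard diet.

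Tlr4, the receptor for bacterial lipopolysaccharide, had lower counts. It ran from 1.92 to 22.6 CPM in ketogenic lesions (median 12.1), against 0.773 to 1.81 CPM in ketogenic intact brain (median 1.07). Standard-diet lesions ran from 4.03 to 18.5 CPM (median 11.9), against 0.819 to 3.37 CPM in standard-diet intact brain (median 1.63). Tlr4 was the gene of the 4 in which each lesion library lay above each intact library of its own diet, on both diets. Such a separation was found for 7.50% of genes tested on the ketogenic and 11.8% on the standard diet. The margin was small on the ketogenic diet, with 1.92 CPM in the lowest lesion and 1.81 CPM in the highest intact library. The log2 fold change was 3.26 (SE 0.43, adjusted p = 2.22e-07) on the ketogenic diet, a fold of 9.61 with an interval from 5.25 to 17.6. It was 2.72 (SE 0.29, adjusted p = 1.47e-07) on the standard diet, a fold of 6.58 with an interval from 4.30 to 10.1.

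Cd14, the co-receptor that loads ligands onto Tlr4, rested on few intact counts, 5 to 27 per library on the ketogenic and 2 to 18 on the standard diet. Its level was 1.34 to 20.2 CPM in ketogenic lesions (median 5.67), against 0.386 to 1.74 CPM in ketogenic intact brain (median 0.700). Standard-diet lesions had 1.27 to 11.9 CPM (median 6.01), against 0.240 to 1.48 CPM in standard-diet intact brain (median 1.08). On each diet all lesions but 1 lay above the intact range, and the exceptions were ketogenic lesion 27 and standard-diet lesion 71. The log2 fold change was 3.38 (SE 0.52, adjusted p = 2.70e-06) on the ketogenic diet and 3.00 (SE 0.43, adjusted p = 4.37e-06) on the standard diet. These are folds of 10.4 (interval 4.98 to 21.8) and 7.99 (interval 4.29 to 14.9). About 3% of genes had a larger log2 fold change, 2.97% on the ketogenic and 3.05% on the standard diet.

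Nfkbia, the inhibitor of NF-kB, changed least of the 4 by fitted value and overlapped most. It ran from 30.1 to 103.6 CPM in ketogenic lesions (median 62.4), against 11.6 to 43.1 CPM in ketogenic intact brain (median 15.8). Standard-diet lesions ran from 23.8 to 75.2 CPM (median 55.3), against 12.6 to 40.6 CPM in standard-diet intact brain (median 17.9). Of the lesions, 15 of 19 on the ketogenic and 8 of 11 on the standard diet lay above the intact range. The log2 fold change was 1.65 (SE 0.25, adjusted p = 1.78e-06) on the ketogenic diet, a fold of 3.14 with an interval from 2.21 to 4.45. On the standard diet it was 1.19 (SE 0.24, adjusted p = 0.000239), a fold of 2.28 with an interval from 1.60 to 3.25.

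**Figure D1:**
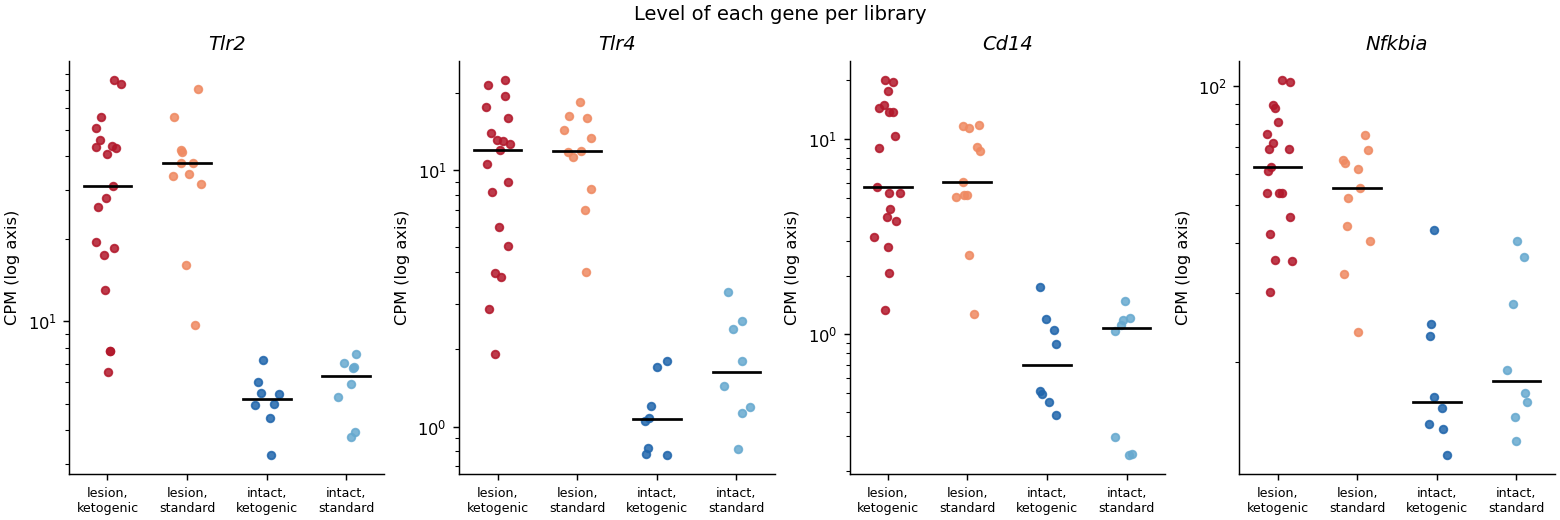
Level of Tlr2, Tlr4, Cd14 and Nfkbia in each of the 46 libraries, in CPM on a log axis, by group (points are libraries, black lines medians). For Tlr4 each lesion lies above the intact libraries of its own diet, and the Nfkbia ranges overlap between 30.1 and 43.1 CPM on the ketogenic diet.

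In the order of mean levels the lesion groups stood above the intact groups for each gene. Tlr2 averaged 34.1 ± 20.9 CPM in ketogenic lesions (SD, n = 19), 37.3 ± 16.6 in standard-diet lesions (SD, n = 11), 5.21 ± 1.15 in ketogenic and 5.88 ± 1.43 CPM in standard-diet intact brain (SD, n = 8 each). Tlr4 averaged 11.2 ± 6.35, 12.1 ± 4.32, 1.15 ± 0.403 and 1.84 ± 0.870 CPM in the groups in that order. Cd14 averaged 9.04 ± 6.31, 7.11 ± 3.71, 0.840 ± 0.474 and 0.853 ± 0.507 CPM. Nfkbia averaged 64.5 ± 21.9, 53.1 ± 16.0, 20.3 ± 10.4 and 23.0 ± 10.8 CPM. The neighbours within a tissue, which differ in diet, differed by less than the larger SD of the pair for each gene. That SD describes the spread between libraries and does not test a difference of means, for which the fits are given below.

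Diet moved none of the 4 genes past the threshold in lesions, where 0.741% of 15782 genes were called (117, or 6 to 242 when 1 library was left out). Between ketogenic and standard-diet lesions the log2 fold change was -0.13 for Tlr2 (SE 0.33, adjusted p = 0.928, edgeR). The interval of the ratio ran from 0.574 to 1.46. Tlr4 differed by -0.10 (SE 0.30, adjusted p = 0.939), with a ratio between 0.607 and 1.43. For Cd14 the difference was 0.35 (SE 0.38, adjusted p = 0.792), with a ratio between 0.744 and 2.19, and for Nfkbia it was 0.29 (SE 0.18, adjusted p = 0.555), with a ratio between 0.940 and 1.58. These intervals leave room for differences of up to 2.19-fold for Cd14, and they do not show equal levels. With limma voom in place of edgeR the log2 values were -0.40 for Tlr2, -0.34 for Tlr4, 0.08 for Cd14 and 0.19 for Nfkbia, and none was called.

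In intact brain 0% of 14746 genes were called for diet by edgeR, with 2181 at an unadjusted p under 0.05, and DESeq2 called 267. Tlr4 was the lowest of the 4 by fitted value, at -0.67 on the log2 scale (SE 0.29, unadjusted p = 0.0297, adjusted p = 0.282), and did not pass. It had 1.15 ± 0.403 CPM in ketogenic and 1.84 ± 0.870 CPM in standard-diet intact brain (SD, n = 8 each), and standard-diet library 85, which has the smallest total, was highest at 3.37 CPM. The other log2 fold changes were -0.18 for Tlr2 (SE 0.17), -0.05 for Cd14 (SE 0.39) and -0.19 for Nfkbia (SE 0.29), with adjusted p of 0.662, 0.967 and 0.794.

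Whether the lesion response of these genes depended on diet was tested as an interaction over all 46 libraries, where edgeR called 0% of 16140 genes, with 719 at an unadjusted p under 0.05. DESeq2 called 2 genes and limma voom 13. The interaction was 0.04 for Tlr2 (SE 0.49), 0.56 for Tlr4 (SE 0.50), 0.38 for Cd14 (SE 0.66) and 0.46 for Nfkbia (SE 0.34) on the log2 scale. The unadjusted p was 0.939, 0.276, 0.566 and 0.180 in that order, none passed after adjustment, and the interval for Cd14 reached 3.28-fold. With limma voom these values were -0.34, 0.079, 0.030 and 0.26, so Tlr2 changed sign and the others were smaller, and none was called.

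**Figure D2:**
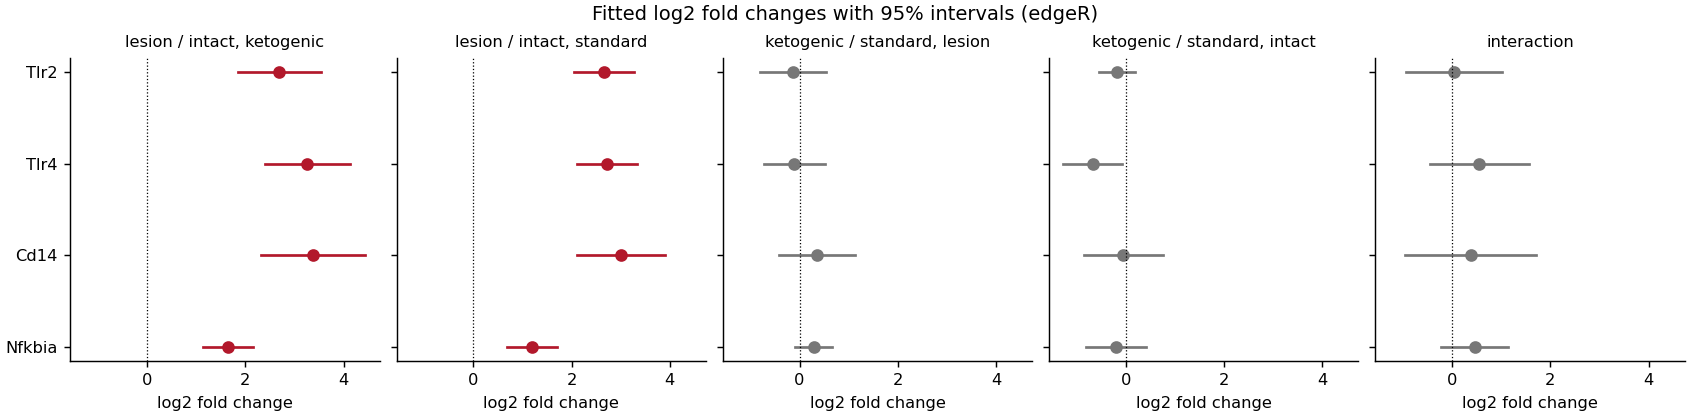
Log2 fold changes of the 4 genes in the 5 comparisons with 95% intervals (edgeR; red where the adjusted p was under 0.05, grey otherwise). The lesion changes lie right of 0 on both diets, with Nfkbia at 1.65 and 1.19, and the diet and interaction values were not called.

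Ratios of counts within a library use no scaling factor, though at low counts they depend on the pseudocount. At a pseudocount of 0.5, Nfkbia changed by a smaller factor than the sensors in 5 of 6 tests of lesions against intact brain. The mean log2 ratio of Nfkbia to Tlr4 was 2.17 ± 0.41 in standard-diet lesions (SD, n = 11), against 3.63 ± 0.91 in standard-diet intact brain (SD, n = 8). The difference of -1.46 had an exact two-sided permutation p of 0.000397, adjusted p = 0.00476 over 24 ratio tests. Nfkbia to Tlr2 differed by -1.28 (adjusted exact permutation p = 0.00735) and Nfkbia to Cd14 by -1.78 (adjusted exact permutation p = 0.00222) on this diet. On the ketogenic diet Nfkbia to Tlr4 was 2.72 ± 0.95 in lesions (SD, n = 19), against 4.03 ± 0.80 in intact brain (SD, n = 8), with an adjusted exact permutation p of 0.00735. Nfkbia to Cd14 differed by -1.43 there (adjusted exact permutation p = 0.00735), while Nfkbia to Tlr2 differed by -0.69 and did not pass (adjusted exact permutation p = 0.180). With a pseudocount of 5 in place of 0.5 the ketogenic calls ended, both at an adjusted exact permutation p of 0.0676, and the standard-diet calls stayed.

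Among the sensors the standard diet gave no difference in factor that passed. Tlr2 to Tlr4 differed by -0.18 between standard-diet lesions and their intact group (adjusted exact permutation p = 0.643). On the ketogenic diet Tlr2 changed by a smaller factor than Tlr4, with a log2 ratio of 1.56 ± 0.26 in lesions (SD, n = 19) and 2.18 ± 0.61 in intact brain (SD, n = 8), adjusted exact permutation p = 0.00735. It also changed by a smaller factor than Cd14, with a difference of -0.74 (adjusted exact permutation p = 0.0122). Both calls rest on intact libraries with 5 to 28 counts of Tlr4 or Cd14 and ended with a pseudocount of 5, at an adjusted exact permutation p of 0.0676 and 0.225.

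Between the lesion groups the ratio of Tlr2 to Tlr4 was nearly the same, at 1.56 ± 0.26 on the ketogenic and 1.57 ± 0.36 on the standard diet (SD, n = 19 and 11), permutation p = 0.955, adjusted p = 0.961. Cd14 was higher relative to both receptors on the ketogenic diet by unadjusted p. Tlr2 to Cd14 was 1.99 ± 0.52 on the ketogenic and 2.47 ± 0.55 on the standard diet (permutation p = 0.0218), and Tlr4 to Cd14 was 0.43 ± 0.52 and 0.91 ± 0.52 (permutation p = 0.0229). Neither passed over the 24 tests, with an adjusted permutation p of 0.0610 each. With 1 library left out, most of the 30 runs stayed uncalled, 24 for Tlr2 to Cd14 and 23 for Tlr4 to Cd14. The adjusted permutation p reached 0.138 for each. Both passed without any 1 of ketogenic lesions 23, 37 and 43 and standard-diet lesions 62, 69 and 82, with differences of -0.58 to -0.52 for Tlr2 to Cd14 in those runs.

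**Figure D3:**
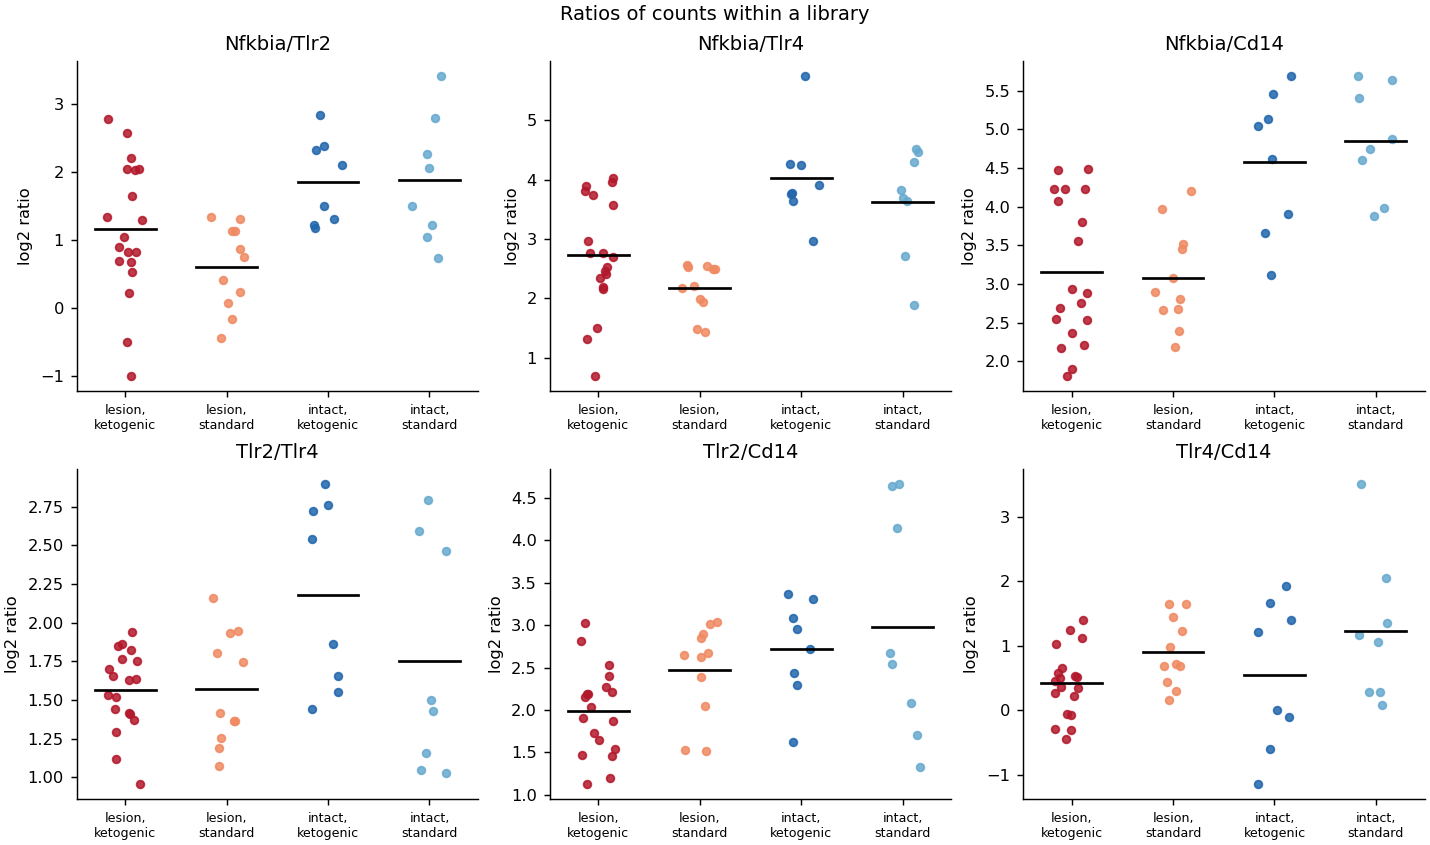
Log2 ratio of raw counts of 2 genes within each library (pseudocount 0.5), by group, with a black line at the mean. The mean Nfkbia to Tlr4 ratio is 2.17 in standard-diet lesions against 3.63 in intact brain, while Tlr2 to Tlr4 means of the lesion groups lie at 1.56 and 1.57.

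Lesions differed widely from one another in the sensor genes. Tlr2 varied 11.6-fold and Tlr4 11.7-fold between the lowest and the highest ketogenic lesion, Cd14 15.1-fold and Nfkbia 3.44-fold. In standard-diet lesions the ranges were 7.32-fold for Tlr2, 4.59-fold for Tlr4, 9.33-fold for Cd14 and 3.15-fold for Nfkbia. Among genes within 0.5 of its mean log2 CPM, Tlr2 had a larger SD than 96.7% in ketogenic and 96.4% in standard-diet lesions, but than 52.0% and 62.4% in the intact groups of these diets. For Tlr4 the shares were 93.0% and 88.8% in lesions, against 32.3% and 76.5% in intact brain. For Cd14 they were 94.9% and 93.7%, against 72.3% and 85.1%. On the standard diet the contrast was thus smaller for Tlr4 and Cd14 than for Tlr2. Nfkbia went the other way. Its SD exceeded that of 77.5% of like genes in ketogenic and 90.1% in standard-diet lesions, against 98.4% and 98.9% in ketogenic and standard-diet intact brain. These shares are descriptions, with no test.

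The 3 sensor genes varied together from lesion to lesion. Across ketogenic lesions (19 libraries) the log2 CPM of Tlr2 and Tlr4 were correlated at r = 0.971 (Pearson) and rho = 0.956 (Spearman). Both reached 1e-05, the lowest permutation p possible with 100000 resamples. The adjusted p of r was 2.50e-05 over 30 relations. Tlr2 and Cd14 had r = 0.897 and rho = 0.846, and Tlr4 and Cd14 had r = 0.894 and rho = 0.825, with an adjusted permutation p of r of 2.50e-05 each. Without the 2 libraries farthest from the median of the first gene, r was 0.967, 0.859 and 0.826 in that order.

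Among standard-diet lesions (11 libraries) the same relations rested largely on libraries 70 and 71, which were lowest in all 3 sensors. There r was 0.895 for Tlr2 and Tlr4 (rho 0.727, adjusted permutation p of r = 0.00115, of rho = 0.0245), and it fell to 0.512 without the 2 libraries farthest from the median Tlr2 level. Tlr2 and Cd14 had r = 0.835 (adjusted permutation p = 0.00432) and rho = 0.336 (adjusted permutation p = 0.324), with r = 0.209 after the same step. Tlr4 and Cd14 had r = 0.884 (adjusted permutation p = 0.00152) and rho = 0.600 (adjusted permutation p = 0.0724), with r = 0.514 after it.

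For Nfkbia the correlation was higher with Cd14 than with either receptor. In ketogenic lesions Nfkbia and Cd14 had r = 0.646 and rho = 0.619 (adjusted permutation p = 0.00432 and 0.0106). With Tlr2 the values were r = 0.403 and rho = 0.382 (adjusted permutation p = 0.0859 and 0.122), and with Tlr4 r = 0.410 and rho = 0.370 (adjusted permutation p = 0.0829 and 0.134), which did not pass. The difference between these correlations was not tested. In standard-diet lesions Nfkbia and Cd14 had r = 0.834 and rho = 0.709 (adjusted permutation p = 0.00367 and 0.0268), and r = 0.707 without the 2 libraries farthest from the median of Nfkbia. There r of Nfkbia also passed with Tlr2, at 0.628 (adjusted permutation p = 0.0433), and with Tlr4, at 0.761 (adjusted permutation p = 0.0111). The rho was 0.191 and 0.382 and did not pass (adjusted permutation p = 0.577 and 0.267), and r was 0.279 and 0.271 without the 2 farthest libraries. Over all 30 lesions r was 0.407 with Tlr2 and 0.428 with Tlr4 (adjusted permutation p = 0.0294 and 0.0218), and 0.171 and 0.197 without the 2 farthest libraries.

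Of the 19 ketogenic lesions, 6 lay above the group median for both Nfkbia and Tlr2, 6 lay below it for both, 5 were above it for one gene and below it for the other, and 2 were at a median. Among the split libraries, ketogenic lesions 33 and 37 had the highest Tlr2 of all libraries, 75.9 and 73.2 CPM, with 53.5 and 36.3 CPM of Nfkbia, below the group median of 62.4. Ketogenic lesions 21 and 25 had 18.5 and 17.5 CPM of Tlr2, below the group median of 31.0, with 75.4 and 71.6 CPM of Nfkbia. These 4 libraries were picked after their values were seen. Leaving out library 37 raised r of Nfkbia and Tlr2 in ketogenic lesions to 0.579, and leaving out library 27, the lowest in all 4 genes, lowered it to 0.238.

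**Figure D4:**
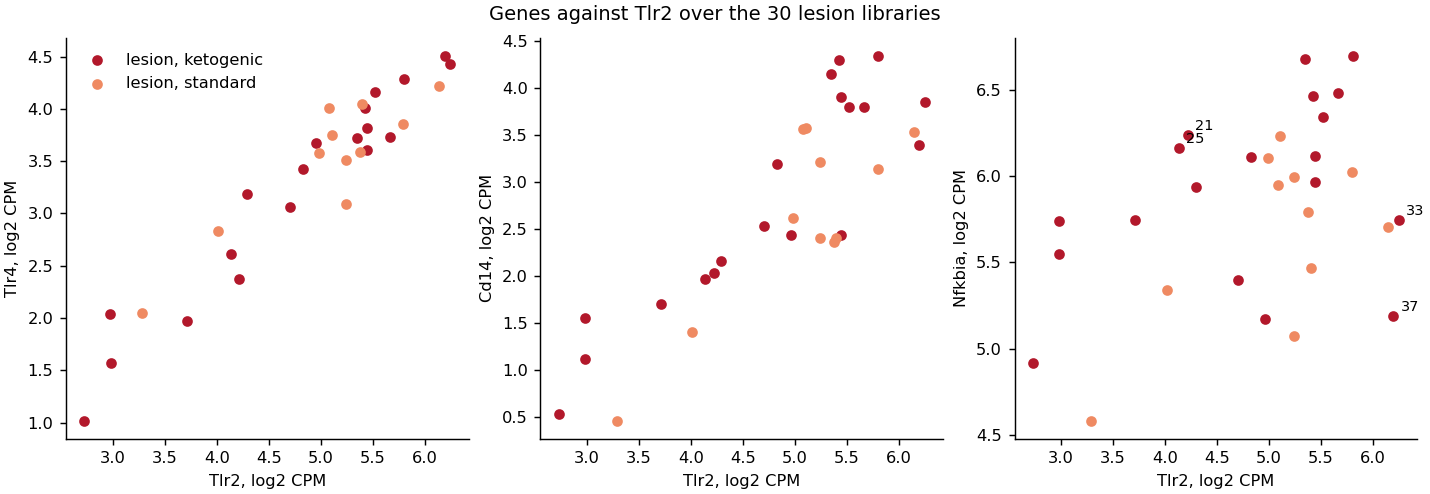
Log2 CPM of Tlr4, Cd14 and Nfkbia against Tlr2 in the 30 lesion libraries, by diet. Tlr4 follows Tlr2 closely (r = 0.971 in ketogenic and 0.895 in standard-diet lesions), while Nfkbia scatters, with ketogenic lesions 33, 37, 21 and 25 labelled.

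The sensor genes also varied with how far a lesion lay from intact brain as a whole, and Nfkbia did so less closely. An axis position was computed per library from the other genes past the filter, with 0 at the intact mean and 1 at the lesion mean. Lesions ran from 0.289 to 1.40 on the ketogenic and from 0.473 to 1.30 on the standard diet. Across ketogenic lesions the position had r = 0.957 with Tlr2 (rho 0.916), 0.966 with Tlr4 (rho 0.925) and 0.966 with Cd14 (rho 0.942), with an adjusted permutation p of r of 2.50e-05 each. Nfkbia had r = 0.572 and rho = 0.598 (adjusted permutation p = 0.0129 and 0.0142), and r = 0.385 without the 2 farthest libraries. In standard-diet lesions r was 0.914 with Tlr2, 0.931 with Tlr4, 0.930 with Cd14 and 0.760 with Nfkbia. The rho of these was 0.645, 0.827, 0.709 and 0.591. It passed for Tlr4 and Cd14 (adjusted permutation p = 0.00568 and 0.0268) and not for Tlr2 and Nfkbia (adjusted permutation p = 0.0533 and 0.0758). Without the 2 farthest libraries r was 0.576, 0.748, 0.707 and 0.378. How common such an r with the axis is among all genes was not computed. The axis is built from genes of the same libraries, so these values describe the libraries.

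**Figure D5:**
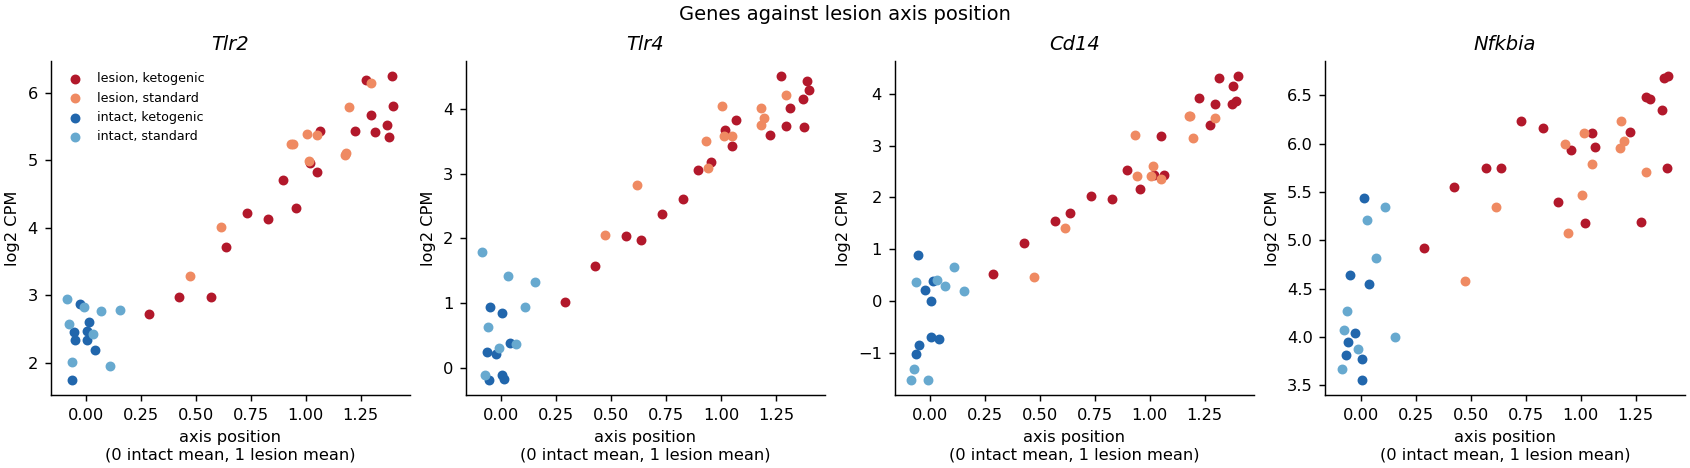
Log2 CPM of each gene against the axis position of the 46 libraries, by group (position without units, 0 at the intact mean and 1 at the lesion mean). Tlr2, Tlr4 and Cd14 climb along the axis within the lesions, with r of 0.957, 0.966 and 0.966 in ketogenic lesions, and Nfkbia less so, with 0.572.

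With the axis position as a covariate, Tlr4 was lower in ketogenic than in standard-diet lesions by -0.32 on the log2 scale (SE 0.10, adjusted p = 0.0404, edgeR). In that fit 10.8% of 15782 genes were called and 5.56% were called lower. Tlr2 differed by -0.33 (SE 0.11, adjusted p = 0.0570) and did not pass, nor did Cd14 at 0.12 (SE 0.13, adjusted p = 0.592) and Nfkbia at 0.27 (SE 0.15, adjusted p = 0.223). Without the covariate, as given above, the log2 fold change of Tlr4 was -0.10 (adjusted p = 0.939, edgeR) and not called, and 0.741% of genes were called. The axis position comes from the RNA of these same lesions, and r of Tlr4 with it was 0.966 in ketogenic and 0.931 in standard-diet lesions. The covariate fit thus compares lesions at equal position and cannot show whether diet changed Tlr4.

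Sequencing depth moved with the sensors in ketogenic lesions, where the deepest library, 27, was the lowest for Tlr2, Tlr4 and Cd14. The library total had r = -0.623 and rho = -0.588 with Tlr2 (adjusted permutation p = 0.0138 and 0.0337 over 12 relations) and r = -0.715 and rho = -0.670 with Tlr4 (adjusted permutation p = 0.00270 and 0.0119). Without the 2 libraries farthest from the median total, r was -0.525 and -0.619. For Cd14 r was -0.532 (adjusted permutation p = 0.0452) with rho = -0.412 (adjusted permutation p = 0.193), and r was -0.345 without those libraries. In standard-diet lesions r was -0.060 for Tlr2 and -0.251 for Tlr4, with adjusted permutation p of 0.854 and 0.595. Leaving out 1 library there gave r from -0.310 to 0.159 for Tlr2 and from -0.628 to -0.112 for Tlr4. Over all 30 lesions r was -0.545 for Tlr2 and -0.661 for Tlr4 (adjusted permutation p = 0.0070 and 0.00108). For Cd14 r over the 30 lesions was -0.410 (adjusted permutation p = 0.0482), with rho = -0.270 (adjusted permutation p = 0.255). In standard-diet lesions r for Cd14 was -0.103 (adjusted permutation p = 0.850). Nfkbia did not pass, with r = -0.443 in ketogenic lesions and -0.276 over all 30 (adjusted permutation p = 0.0971 and 0.211). The part of depth in the spread between lesions was not tested.

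Many genes shared the lesion pattern of the sensors, and few that of Nfkbia. Of 12236 other genes that averaged 5 CPM or more in lesions, 1578 had r of at least 0.8 with Tlr2 over the 30 lesions, 1700 with Tlr4 and 1730 with Cd14. With Nfkbia 6 genes did, and the highest r was 0.870. Tlr4 was closer to Tlr2 (r = 0.954 over 30 lesions) than all but 52 of these genes were. Cd14 ranked lower, with 979 genes more alike to Tlr2 than Cd14 was and 1010 more alike to Tlr4 than Cd14 was. For Nfkbia, 262 genes were more alike than Cd14 was, 2540 more than Tlr4 and 2746 more than Tlr2. The IDs with the highest mean r over the 4 genes were ENSRNOG00000006778, with r of 0.929 to Tlr2, 0.941 to Tlr4, 0.962 to Cd14 and 0.602 to Nfkbia, and ENSRNOG00000014117, with r of 0.933, 0.916, 0.955 and 0.630. They are given as a description, with no test.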

How the data were processed

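The labels describe polyA RNA and directional libraries from brain tissue. The submitters' processing notes name HISAT2 2.0.5, HTSeq 0.7.2 and Cufflinks among their tools, with build mRatBN7.2. Neither the release of the gene annotation nor the setting for strand is given in the sources used here. Reads of a gene and of an overlapping or antisense gene may therefore be mixed. The deposited files hold whole-number counts per gene that the authors did not normalize, and 0 cells differed between the series-wide table and the single-sample files. Another 39 columns of it belong to no sample described here and were not used.

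Of the 30452 IDs, 0 matched the RefSeq gene table (GRCr8). The names of the 4 genes are those of the list that chose them, and the pathway and cell type lists could not be applied and were not analysed here. The genes, lists and tests were chosen with earlier results of these data known. Besides the 4 genes, the rule for naming took the 2 IDs with the highest mean r over them.

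Counts were tested in R 4.3.3 with edgeR 4.0.16 (TMM, filterByExpr, robust quasi-likelihood F test), each comparison on its own pair of groups and the interaction on all 46 libraries. The fits were also run on counts simulated from edgeR's own fitted model, which cannot show that they hold for these data. SE and 95% intervals were derived from the F statistic. Alternatives used DESeq2 1.42.0, limma 3.58.1 voom, other scaling, no filter, 1 fit over all libraries, the axis covariate and leaving out each library. Log2 CPM had a prior count of 2 and ratios a pseudocount of 0.5. Permutation tests were two-sided, exact where a group had 8 libraries and otherwise with 100000 resamples. Library totals of 8883068 to 30601841 counts limit precision most for Cd14 in intact brain. The labels do not say that each library is a separate animal, so p-values measure the spread between these libraries, which may be technical. The relations with library totals and within intact brain were added after the data were seen.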

Additional observations from a re-analysis of the deposited data

Results flagged for a closer look

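Nfkbia in ketogenic intact library 53 stood apart from the others of its group, at 43.1 CPM against 24.9 CPM in the next highest, a gap of 0.578 of the range of the group, above Dixon's critical value for 8 libraries. On the log2 CPM scale the gap was 0.419 of the range and below that value, so library 53 stands apart only on the unlogged scale. Both intact groups were checked for each gene, 8 groups in all, and chance flags about 1 in 20 groups. Without this library the log2 fold change of Nfkbia between ketogenic and standard-diet intact brain was -0.45 (edgeR, adjusted p = 0.487), against -0.19 with it.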

How the results depend on the processing

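The lesion changes of all 4 genes on both diets kept their direction and their call under 7 alternatives and without each library in turn. Scaling by library totals moved the median log2 fold change of all genes by 0.25 with ketogenic and by 0.34 with standard-diet groups. Of genes called between lesion diets, against 117 in the fit reported, there were 464 with DESeq2, 183 with library totals, 21 with no low-count filter, 945 with limma voom, 77 in 1 fit over all libraries and 1710 with the axis position, which also called Tlr4 at -0.32. Across the alternatives the lesion diet values ran from -0.40 to -0.12 for Tlr2, -0.34 to -0.10 for Tlr4, 0.08 to 0.35 for Cd14 and 0.19 to 0.29 for Nfkbia. Leaving out a library gave counts of 6 (without standard-diet lesion 70) to 242 (without ketogenic lesion 37), and 20 of 30 libraries moved it by over 1.5 times. Between intact diets, with 0 called, DESeq2 called 267 and 1 fit over all libraries 63, and leaving out a library gave 0 to 170. For the interaction DESeq2 called 2 and limma voom 13.

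Signs turned only where no call was made. Cd14 between intact diets was 0.034 with library totals and 0.062 with limma voom, and -0.29 to 0.086 without single libraries. Tlr2 between lesion diets was -0.23 to 0.0042 without single libraries. The Tlr2 interaction was -0.036 with library totals and -0.34 with limma voom. Under limma voom the interaction also shrank to 0.079 for Tlr4, 0.030 for Cd14 and 0.26 for Nfkbia.

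With a pseudocount of 5 the ketogenic ratio differences between lesions and intact brain were no longer called: -0.37 for Tlr2 to Tlr4, -0.33 for Tlr2 to Cd14, -1.01 for Nfkbia to Tlr4 and -0.97 for Nfkbia to Cd14. Uncalled ratios turned to 0.020 (Tlr2 to Cd14) and 0.028 (Tlr4 to Cd14) on the standard diet and 0.038 (Tlr4 to Cd14) on the ketogenic diet. Without single libraries, lesion diet differences ran from -0.58 to -0.43 for Tlr2 to Cd14 and from -0.56 to -0.41 for Tlr4 to Cd14, and these passed without ketogenic lesions 23, 37 or 43 or standard-diet lesions 62, 69 or 82, the second also without ketogenic lesion 3. Nfkbia to Tlr4 ran from 0.48 to 0.67 and passed without ketogenic lesion 37. Nfkbia to Cd14 ran from -0.015 to 0.19, Tlr2 to Tlr4 from -0.056 to 0.053, and Nfkbia to Tlr2 between intact diets from -0.18 to 0.20. With library totals, r of Nfkbia in ketogenic lesions was 0.485 with Tlr2 and 0.491 with Tlr4, and both passed. The cause of these shifts was not tested. No paired analysis was possible because the groups share no replicate numbers in the labels.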

Other observations

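Correlations among the 4 genes within intact brain varied by pair and diet, and their difference from those in lesions was not tested. In ketogenic intact brain (8 libraries) Tlr2 and Tlr4 had r = -0.127 (exact permutation p = 0.771) and Tlr4 and Cd14 r = -0.758 and rho = -0.810 (exact permutation p = 0.0345 and 0.0218, adjusted p = 0.207 and 0.0653 over 12 relations). In standard-diet intact brain (8 libraries) Nfkbia and Cd14 had r = 0.774 and rho = 0.952 (exact permutation p = 0.0211 and 0.00114, adjusted p = 0.207 and 0.0137). Tlr2 was lower there where Cd14 and Nfkbia were higher by rank, with rho = -0.905 for Cd14 (adjusted exact permutation p = 0.0274) and -0.881 for Nfkbia (adjusted exact permutation p = 0.0290), while r was -0.637 and -0.617 and did not pass. In ketogenic intact brain Tlr2 had rho of 0.690 with Cd14 and 0.286 with Nfkbia (adjusted exact permutation p = 0.167 and 0.920), and the difference between the diets was not tested. Cd14 had 2 to 27 counts in these libraries. These relations were computed after the lesion values were seen.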
